A study of Mus musculus with 9 samples.

Results

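The machinery of RNA polymerases I and III comprises the subunits of both enzymes and the factors that bring them to their genes. Members were chosen by gene symbol: the Polr1, Polr3, Taf1a to Taf1d, Gtf3c and Snapc genes and 11 further named genes. This gave 40 genes described here, out of 18193 genes measured, and 39 passed the filter on low signal, out of 12976. Snapc5, with values of 3.60 to 4.37 on the log2 scale, was below the filter on every array. The 40 genes were 6 polymerase I subunits, 2 subunits shared by polymerases I and III, 7 polymerase I factors, 9 polymerase III subunits, 3 subunits of TFIIIB, TFIIIA with 6 subunits of TFIIIC, 5 subunits of SNAPc, and the repressor gene Maf1.

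RNA polymerase I makes a single transcript, the precursor of the large ribosomal RNAs, in the nucleolus. RNA polymerase III makes transfer RNAs, the small 5S ribosomal RNA, the U6 spliceosomal RNA and other short untranslated RNAs. Both outputs feed protein synthesis, and MYC proteins, which bind the sequence CACGTG together with their partner MAX, are known to stimulate both enzymes in growing cells. Arrays of this kind measure the messenger RNAs for the machinery and not its activity.

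The cells were preSC, neuroendocrine precursor cells of small cell lung cancer grown from mouse lungs, on a mixed C57BL/6 and 129/Sv background. Conditional alleles of Rb, p53 and p130 had been deleted in the lung by an adenovirus carrying Cre, so that per the labels all 4 groups carry the deletion of these 3 genes. The groups were untransduced preSC (3 arrays) and preSC carrying a retrovirus for L-Myc (2 arrays), C-Myc (2 arrays) or N-Myc (2 arrays). The labels call the L-Myc cells transformed and name no empty-vector control, so the retrovirus and the MYC protein it carries cannot be told apart. They also name polyA RNA for preSC and L-Myc samples and total RNA for C-Myc and N-Myc samples. The labelled RNA type thus follows the difference of C-Myc and N-Myc cells from both preSC and L-Myc cells, and cannot be told apart from it.

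All values are RMA values on the log2 scale as the authors deposited them, and changes are differences of group means on that scale, so that 1 is a factor of 2. A member is said to have risen or fallen where limma, fitted to all 9 arrays and all genes tested, gave a Benjamini-Hochberg adjusted p under 0.05. All 8 neuroendocrine marker genes measured were above the filter on every array, with a summed level of 14.11 to 14.17 in preSC and 13.81 to 14.03 in transduced cells. Of these 8 markers, 2 rose and 2 fell in L-Myc, 2 rose and 4 fell in C-Myc, and 2 rose and 5 fell in N-Myc cells. Of the markers of other cells, Col1a1, Col1a2, Col3a1 and Lum (fibroblasts), Pecam1, Cdh5, Tek and Emcn (endothelium), Ptprc and Itgam (leukocytes) and Scgb1a1 and Sftpa1 (lung epithelium) were above the filter on no array. Others of these lists were high on some arrays. Lyz2 (leukocytes) ranged from 5.61 to 12.31 and Dcn (fibroblasts) from 5.29 to 10.32. Sftpc (lung epithelium) read 6.06 to 8.42 in preSC, 7.77 and 6.43 in L-Myc, 10.68 and 6.17 with C-Myc, and 10.59 and 11.10 with N-Myc. The summed leukocyte list was 7.89 to 10.32 in preSC and 8.14 to 12.37 in transduced cells, and the lung epithelial list 8.48 to 9.36 and 8.32 to 11.26. The fibroblast list was 8.56 to 9.70 and 8.08 to 10.53. The part of these cell types in the changes below was not tested.

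Some arrays stood apart. Replicates preSC 1 and 2 differed over 2-fold in 47 of 45101 probe sets and N-Myc 1 and 2 in 13, while every other pair within a group differed in 1807 to 3035. If each close pair is averaged and counted as 1 array, no member was called in any comparison with preSC, and limma called 2, 2 and 0 of all genes tested for L-Myc, C-Myc and N-Myc cells. The preSC arrays also differed from all 6 transduced arrays in control probe sets. Their 18S ribosomal RNA signal was 12.88 to 13.91 against 8.22 to 9.35, and the 5′ minus 3′ difference of the spiked-in Dap transcript was -3.66 to -3.40 against -1.68 to -1.51. The same difference for the beta-actin gene Actb was -0.85 to -0.62 against -0.31 to -0.20. Every comparison with preSC coincides with these differences, and their part in it was not tested.

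Members of both machineries rose in transduced cells, few in L-Myc and more in C-Myc and N-Myc cells. The C-Myc and N-Myc comparisons with preSC also cross the labelled RNA type, and the L-Myc comparison does not. Against preSC, 5 of 39 members rose in L-Myc cells (12.8%, where 5.44% of all genes tested rose), and none fell (8.03% of all genes). In C-Myc cells 12 rose (30.8%, against 9.91% of all genes) and 1 fell (13.6% of all genes). In N-Myc cells 14 rose (35.9%, against 12.5% of all genes) and none fell (16.4% of all genes). In both directions together, 13.5%, 23.5% and 28.8% of all genes tested were called in these 3 comparisons. The median change over the 40 members was 0.14, 0.36 and 0.33 for L-Myc, C-Myc and N-Myc cells, beside -0.04, -0.05 and -0.03 over all genes tested. On brightest probe sets, Taf1b, Rrn3, Brf2 and Gtf3c3 rose in all 3 groups, and the polymerase subunits that rose did so in C-Myc or N-Myc cells. On second-brightest probe sets, the subunits Polr3c and Polr3f were called in L-Myc cells too.

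**Figure D1:**
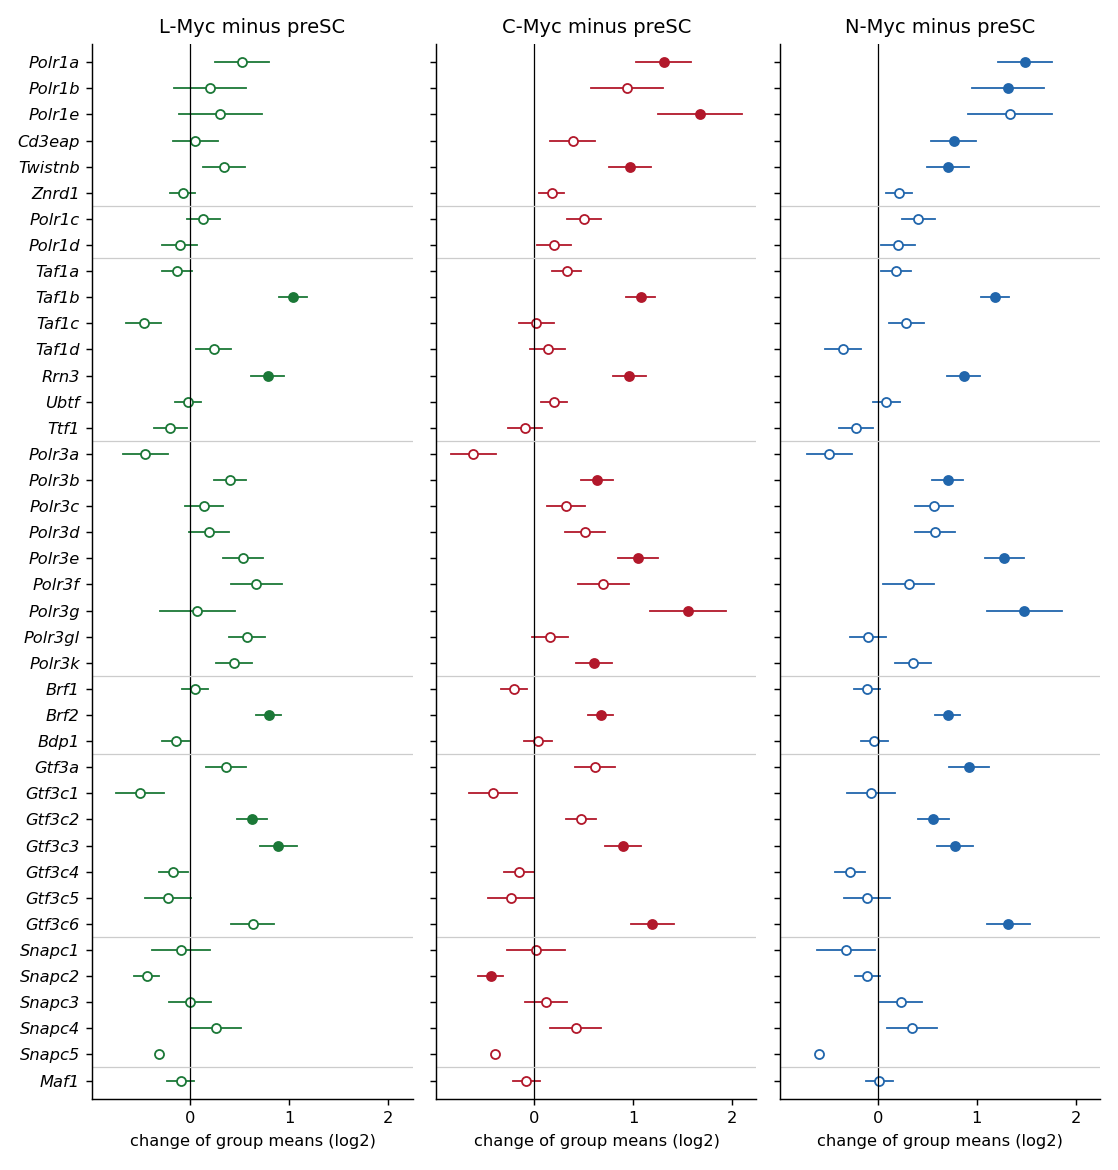
Change of each of the 40 members against preSC on the log2 scale, in 1 panel per MYC group, with members ordered by role. Points are differences of group means, bars are 1 standard error of the limma fit (none for Snapc5, which was not tested), and filled points passed the test (5, 13 and 14 members, of which 1, Snapc2 in C-Myc cells, lies below 0).

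The counts depended on single arrays, and calls over all genes did too. Without preSC 1, 5.49%, 12.2% and 16.2% of all genes tested were called for L-Myc, C-Myc and N-Myc cells. Without preSC 2 these were 4.62%, 10.5% and 14.1%. The L-Myc count of 2 members out of 39 in these fits is near the share over all genes. Members were also called about as often as all genes in L-Myc cells without 1 L-Myc array, and in N-Myc cells without 1 N-Myc array. In L-Myc cells the count was 5, and it was 2 without preSC 1 or without preSC 2, 3 without preSC 3, L-Myc 1, N-Myc 1 or N-Myc 2, 1 without L-Myc 2, and 8 without either C-Myc array. The L-Myc rises of Rrn3 and Gtf3c2 were lost without any 1 of the preSC, L-Myc or N-Myc arrays, and that of Gtf3c3 without preSC 1, preSC 2 or either L-Myc array. In C-Myc cells the count of 13 was 8 without preSC 1, N-Myc 1 or N-Myc 2, 6 without preSC 2 and 6 without C-Myc 1. Polr1a, Polr1e, Twistnb, Polr3b, Polr3g, Polr3k and Gtf3c3 were not called without C-Myc 1. In N-Myc cells the count of 14 was 9 without preSC 1, 7 without preSC 2, 1 without N-Myc 1, where Taf1b was left, and 2 without N-Myc 2, where Taf1b and Polr3e were left. Of the 32 calls in the 3 comparisons, 7 were kept whichever array was left out: Taf1b in each group, and Rrn3, Polr3e, Brf2 and Gtf3c6 in C-Myc cells.

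In the catalytic core of polymerase I, Polr1a rose in C-Myc and N-Myc cells and Polr1b passed in N-Myc cells alone. Polr1a encodes the largest subunit, which forms the active site with the second largest, Polr1b. The Polr1a value was 7.27, 6.95 and 7.34 in the preSC arrays, 7.63 and 7.79 in L-Myc, 8.92 and 8.06 with C-Myc, and 8.89 and 8.45 with N-Myc. All transduced arrays were above all preSC arrays, and the C-Myc and N-Myc arrays were above both L-Myc arrays. Polr1a rose by 1.31 (SE 0.27, adjusted p = 0.016) in C-Myc and by 1.49 (SE 0.27, adjusted p = 0.00967) in N-Myc cells, and differed by 0.53 (SE 0.27, adjusted p = 0.24) in L-Myc cells. Polr1b was 6.87, 6.97 and 7.06 in preSC, 7.15 and 7.20 in L-Myc, 8.62 and 7.20 with C-Myc, and 8.42 and 8.14 with N-Myc. C-Myc 1 was at least as high as the N-Myc arrays, while C-Myc 2 lay at the L-Myc level. Polr1b rose by 1.31 (SE 0.36, adjusted p = 0.0334) in N-Myc cells, and differed by 0.94 (SE 0.36, adjusted p = 0.1) in C-Myc cells.

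Polr1e and Cd3eap encode the pair of subunits known in human cells as PAF53 and PAF49, which sits on the enzyme's core and aids initiation and elongation. For Polr1e the preSC arrays read 7.10, 6.53 and 7.32, the L-Myc arrays 6.82 and 7.76, the C-Myc arrays 9.22 and 8.09, and the N-Myc arrays 8.14 and 8.48. L-Myc overlapped preSC, and the other transduced arrays were above both groups. Polr1e rose by 1.68 (SE 0.42, adjusted p = 0.0283) in C-Myc cells, and differed by 1.33 (SE 0.42, adjusted p = 0.0503) in N-Myc and by 0.31 (SE 0.42, adjusted p = 0.673) in L-Myc cells. Cd3eap read 7.29, 7.38 and 7.05 in preSC, 7.20 and 7.39 in L-Myc, 8.00 and 7.27 with C-Myc, and 8.09 and 7.92 with N-Myc. C-Myc 1 and the N-Myc arrays stood above the rest for Cd3eap, while L-Myc and C-Myc 2 lay at the preSC level. It rose by 0.77 (SE 0.23, adjusted p = 0.0414) in N-Myc cells.

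Twistnb encodes the stalk subunit through which, in yeast, the enzyme contacts Rrn3. It read 9.37, 8.99 and 8.98 in preSC, 9.19 and 9.72 in L-Myc, 10.25 and 9.92 with C-Myc, and 9.79 and 9.86 with N-Myc. Twistnb rose by 0.97 (SE 0.21, adjusted p = 0.0181) in C-Myc and by 0.71 (SE 0.21, adjusted p = 0.0415) in N-Myc cells, whose arrays were above all preSC and L-Myc arrays. On its second probe set, of nearly the same brightness, N-Myc (9.57 and 9.66) and L-Myc (9.36 and 9.79) overlapped. There the C-Myc difference from preSC of 0.85 was called and the N-Myc difference of 0.43 was not. Znrd1, the subunit involved in RNA cleavage, varied between 9.55 and 10.00 and passed in no group. The 2 subunits shared with polymerase III, Polr1c (9.31 to 10.13) and Polr1d (11.33 to 11.94), did not pass on their brightest probe sets either. Polr1d was called in C-Myc cells on its second-brightest probe set, at 0.81, and in C-Myc and N-Myc cells with the mean of probe sets. Polr1c differed by 0.51 (SE 0.17, adjusted p = 0.0677) in C-Myc cells. Of the 6 subunits of polymerase I alone, 0, 3 and 4 rose for L-Myc, C-Myc and N-Myc cells, with median changes of 0.26, 0.96 and 1.04.

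**Figure D2:**
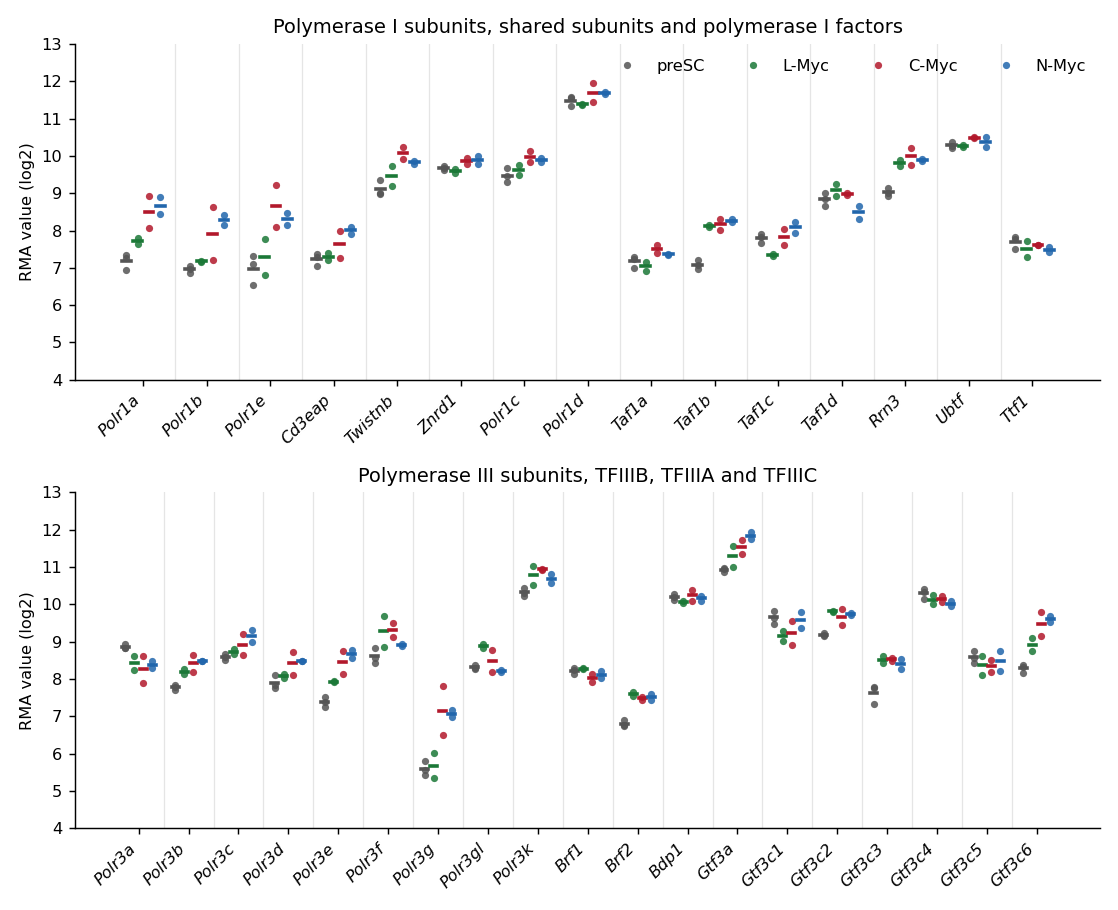
RMA value on the log2 scale of members other than SNAPc and Maf1 on each of the 9 arrays, coloured by group with a short line at the group mean, and with polymerase I and shared subunits and polymerase I factors in the upper panel and polymerase III subunits with TFIIIB, TFIIIA and TFIIIC in the lower. On the brightest probe sets drawn here, Polr1a, Polr1e and Polr3g show C-Myc and N-Myc points above preSC and L-Myc points. Ubtf, Bdp1 and Brf1 stay within narrow ranges on them, while second probe sets of Ubtf and Bdp1 do not.

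The promoters of Polr1e, which had the largest rise of any member, and of Cd3eap are shown because they differ in CACGTG, the sequence bound by MYC with MAX. Sequences are from RefSeq (GRCm38.p6), 250 bases before to 50 after the annotated start, at chr4:45018359-45018658, plus strand, for Polr1e and chr7:19359434-19359733, minus strand, for Cd3eap. Capitals mark CACGTG, which reads the same on both strands.
Polr1e: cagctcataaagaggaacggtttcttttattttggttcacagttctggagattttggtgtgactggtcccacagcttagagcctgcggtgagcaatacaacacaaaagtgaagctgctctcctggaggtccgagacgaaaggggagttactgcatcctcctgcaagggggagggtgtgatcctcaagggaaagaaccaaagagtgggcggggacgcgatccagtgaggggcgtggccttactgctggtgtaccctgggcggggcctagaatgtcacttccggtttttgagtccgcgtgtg
Cd3eap: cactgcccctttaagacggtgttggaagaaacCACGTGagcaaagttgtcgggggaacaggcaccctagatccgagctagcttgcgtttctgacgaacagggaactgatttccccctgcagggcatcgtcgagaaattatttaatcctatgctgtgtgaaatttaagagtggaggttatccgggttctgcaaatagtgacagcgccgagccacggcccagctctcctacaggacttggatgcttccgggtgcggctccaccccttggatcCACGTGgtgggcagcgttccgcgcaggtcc
Cd3eap held the sequence 218 bases before the start and again at base 21 after it, and its window overlapped the neighbouring gene Ppp1r13l. The Polr1e window held none. A match describes these letters and not binding.

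Among polymerase I factors, Taf1b and Rrn3 rose in all 3 groups and the other 5 in none on brightest probe sets. Taf1d and Ubtf, among these 5, were called in all 3 groups both with the mean of probe sets and on second-brightest probe sets. Taf1b is a subunit of SL1, the complex that selects the ribosomal RNA promoter. It read 7.07, 7.22 and 6.97 in preSC, 8.10 and 8.14 in L-Myc, 8.31 and 8.02 with C-Myc, and 8.23 and 8.31 with N-Myc. The transduced arrays lay close together, well above preSC. Taf1b rose by 1.04 (SE 0.14, adjusted p = 0.00739), 1.08 (SE 0.14, adjusted p = 0.00431) and 1.18 (SE 0.14, adjusted p = 0.00342) for L-Myc, C-Myc and N-Myc cells. Rrn3, also known as TIF-IA, binds polymerase I and makes it competent to initiate. Its values were 9.13, 9.02 and 8.92 in preSC, 9.74 and 9.88 in L-Myc, 10.22 and 9.76 with C-Myc, and 9.85 and 9.93 with N-Myc, with no overlap between preSC and the rest. Rrn3 rose by 0.79 (SE 0.17, adjusted p = 0.0238), 0.96 (SE 0.17, adjusted p = 0.00909) and 0.87 (SE 0.17, adjusted p = 0.0107) in this order.

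The Rrn3 promoter is shown because it held CACGTG in 2 places, 215 and 48 bases before the start (RefSeq GRCm38.p6, chr16:13780449-13780748, plus strand), marked in capitals.
Rrn3: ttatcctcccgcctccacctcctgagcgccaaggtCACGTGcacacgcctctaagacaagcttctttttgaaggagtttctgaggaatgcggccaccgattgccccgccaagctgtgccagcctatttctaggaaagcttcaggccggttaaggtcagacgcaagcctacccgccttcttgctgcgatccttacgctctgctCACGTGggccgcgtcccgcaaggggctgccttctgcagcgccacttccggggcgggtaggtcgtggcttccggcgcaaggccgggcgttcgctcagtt
Of 27025 genes with a promoter window in RefSeq, 2187 (8.09%) held CACGTG. Among members 35 had a window, and 6 of them (17.1%) held it. It was present in 4 of the 15 members that rose in at least 1 group on brightest probe sets (26.7%). Of the 20 others 2 held it (10.0%), Polr3c and Polr3gl. Polr3c was called in all 3 groups on its second probe set, so this split depends on the choice of probe set.

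Taf1a, Taf1c and Taf1d, also subunits of SL1, did not pass on their brightest probe sets. Taf1a varied between 6.93 and 7.62, Taf1c between 7.31 and 8.24 and Taf1d between 8.32 and 9.24. Taf1c was lower in both L-Myc arrays (7.37 and 7.31) and higher in both N-Myc arrays (8.24 and 7.95) than in preSC (7.92, 7.82 and 7.67), with differences of -0.46 (SE 0.18, adjusted p = 0.127) and 0.29 (SE 0.18, adjusted p = 0.25). Ubtf encodes UBF, the factor that wraps active ribosomal RNA genes. On its brightest probe set it stayed between 10.22 and 10.52. Ttf1, the termination factor, stayed between 7.29 and 7.82. The median change of the 7 factors was -0.01, 0.21 and 0.19 for L-Myc, C-Myc and N-Myc cells, and 2 of 7 rose in each.

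Polymerase III subunits rose in part. On brightest probe sets, 4 of 9 rose in C-Myc cells and 3 in N-Myc cells, while none passed in L-Myc cells. The medians were 0.41, 0.61 and 0.57 for L-Myc, C-Myc and N-Myc cells. On second-brightest probe sets, Polr3c and Polr3f were called in all 3 groups, at 2.27 and 0.81 in L-Myc cells. Polr3b, the second largest subunit, read 7.71, 7.85 and 7.79 in preSC, 8.12 and 8.26 in L-Myc, 8.65 and 8.19 with C-Myc, and 8.48 and 8.49 with N-Myc. All transduced arrays were higher than preSC for Polr3b. It rose by 0.64 (SE 0.16, adjusted p = 0.0278) in C-Myc and by 0.70 (SE 0.16, adjusted p = 0.0183) in N-Myc cells. On its second probe set the N-Myc difference of 0.53 was called and the C-Myc difference of 0.45 was not. The largest subunit, Polr3a, lay the other way, between 8.82 and 8.95 in preSC and between 7.90 and 8.62 in transduced arrays. Its differences of -0.45, -0.61 and -0.49 (SE 0.23 each) for L-Myc, C-Myc and N-Myc cells did not pass (adjusted p of 0.231, 0.0926 and 0.143).

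Polr3e and Polr3d encode a pair of subunits related to the polymerase II factor TFIIF. Polr3e read 7.26, 7.39 and 7.53 in preSC, 7.92 and 7.94 in L-Myc, 8.75 and 8.13 with C-Myc, and 8.77 and 8.57 with N-Myc. These values stepped up from preSC to L-Myc and from L-Myc to the other arrays without overlap. Polr3e rose by 1.05 (SE 0.20, adjusted p = 0.0118) in C-Myc and by 1.28 (SE 0.20, adjusted p = 0.00615) in N-Myc cells, and differed by 0.54 (SE 0.20, adjusted p = 0.118) in L-Myc cells. Its dimmer probe set did not follow, with changes of -0.13 and -0.15 in C-Myc and N-Myc cells. Polr3d (7.75 to 8.73) did not pass on its brightest probe set, at 0.52 and 0.58 (SE 0.20 each, adjusted p of 0.104 and 0.0694) in C-Myc and N-Myc cells. Polr3k, a subunit for RNA cleavage and termination, read 10.31, 10.23 and 10.45 in preSC, 10.52 and 11.03 in L-Myc, 10.93 and 10.94 with C-Myc, and 10.57 and 10.81 with N-Myc. It rose by 0.61 (SE 0.18, adjusted p = 0.0477) in C-Myc cells, a call lost without any 1 of the preSC, C-Myc or N-Myc arrays. On its second probe set, of nearly the same brightness, the C-Myc difference was 0.23 and was not called. Dimmer Polr3k probe sets above the filter differed by 0.57, 0.52 and 0.12 in C-Myc cells.

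Polr3c, Polr3f and either Polr3g or Polr3gl form the 3-part unit that contacts TFIIIB. Polr3g and Polr3gl are paralogues used as alternatives, Polr3g being known from human cells as the form of stem cells and many tumour cells. For Polr3g the preSC arrays read 5.41, 5.56 and 5.81, the L-Myc arrays 5.33 and 6.01, the C-Myc arrays 7.80 and 6.50, and the N-Myc arrays 6.97 and 7.17. L-Myc overlapped preSC, and C-Myc and N-Myc lay above both. Polr3g rose by 1.56 (SE 0.38, adjusted p = 0.0255) in C-Myc and by 1.48 (SE 0.38, adjusted p = 0.0262) in N-Myc cells, and differed by 0.08 (SE 0.38, adjusted p = 0.919) in L-Myc cells. Polr3gl read 8.38, 8.30 and 8.28 in preSC, 8.95 and 8.84 in L-Myc, 8.19 and 8.78 with C-Myc, and 8.19 and 8.25 with N-Myc. It was highest in L-Myc cells and C-Myc 2, and passed in no group, at 0.58 (SE 0.18, adjusted p = 0.0764) in L-Myc cells.

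The difference between the Polr3g and Polr3gl values is of use only for its change between arrays, since levels of different probe sets are not comparable. It was -2.97, -2.74 and -2.47 in preSC, -3.61 and -2.84 in L-Myc, -0.39 and -2.28 with C-Myc, and -1.22 and -1.08 with N-Myc. The balance thus lay nearer Polr3g in N-Myc cells than in preSC or L-Myc cells, and the C-Myc arrays spanned a wide range. Polr3c (8.50 to 9.31) and Polr3f (8.42 to 9.69) did not pass in any group on their brightest probe sets. The nearest to passing was Polr3c in N-Myc cells, at 0.57 (SE 0.19, adjusted p = 0.0618).

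**Figure D3:**
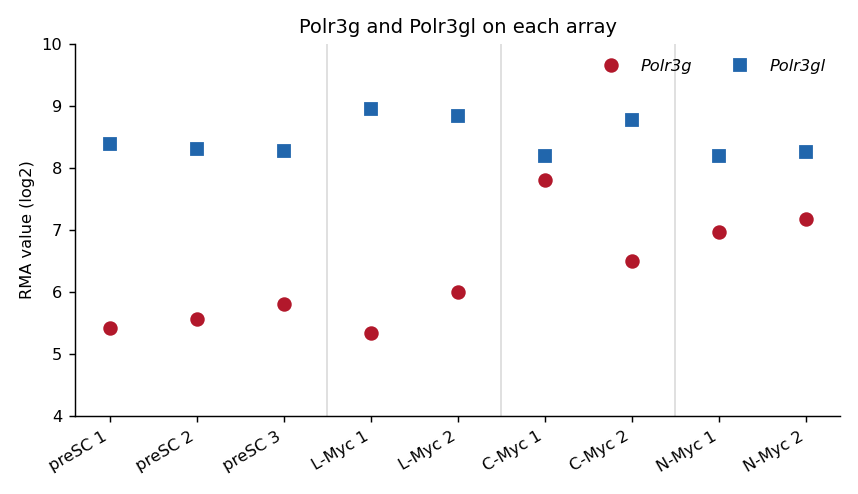
RMA values on the log2 scale of the paralogues Polr3g (circles) and Polr3gl (squares) on each of the 9 arrays, with 1 column per array. Polr3g lies between 5.33 and 6.01 in preSC and L-Myc arrays and between 6.50 and 7.80 in C-Myc and N-Myc arrays, while Polr3gl stays between 8.19 and 8.95; the levels of the 2 probe sets are not comparable with each other.

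The promoters of Polr3g and Polr3e are shown as those of the polymerase III subunits with the largest rises (RefSeq GRCm38.p6, chr13:81710964-81711263, minus strand, and chr7:120917528-120917827, plus strand). Capitals mark CACGTG and, in Polr3e, box B of transfer RNA genes.
Polr3g: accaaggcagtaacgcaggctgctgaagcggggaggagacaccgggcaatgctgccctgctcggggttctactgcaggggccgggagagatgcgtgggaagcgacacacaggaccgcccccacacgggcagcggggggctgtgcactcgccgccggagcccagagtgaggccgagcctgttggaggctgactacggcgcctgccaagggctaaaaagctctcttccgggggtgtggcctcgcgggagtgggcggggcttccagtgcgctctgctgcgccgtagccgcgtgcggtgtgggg
Polr3e: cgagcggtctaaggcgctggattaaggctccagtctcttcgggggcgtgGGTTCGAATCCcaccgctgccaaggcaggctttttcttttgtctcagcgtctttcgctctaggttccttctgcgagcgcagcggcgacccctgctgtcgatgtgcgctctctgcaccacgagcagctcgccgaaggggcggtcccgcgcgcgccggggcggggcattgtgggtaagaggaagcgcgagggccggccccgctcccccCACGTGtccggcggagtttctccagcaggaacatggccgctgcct
The Polr3g window held neither. Polr3e held CACGTG at base 6 after its start. It also held GGTTCGAATCC 201 bases before the start, a match to the box B consensus GGTTCGANNCC, searched on both strands. That consensus is the binding sequence of TFIIIC and was present in the windows of 40 of 27025 genes (0.148%). Among the 35 members with a window, Polr3e alone held it. In RefSeq the transfer RNA gene n-TLaag4, itself a template of polymerase III, reaches into the same window.

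In TFIIIB, the factor that recruits polymerase III together with TBP, Brf2 rose in all 3 groups and the others in none on brightest probe sets. Brf2 serves promoters of the U6 type, whereas Brf1 serves transfer RNA and 5S genes. Brf2 read 6.90, 6.75 and 6.76 in preSC, 7.55 and 7.65 in L-Myc, 7.52 and 7.43 with C-Myc, and 7.59 and 7.42 with N-Myc. The transduced arrays were all above preSC, within a narrow range. Brf2 rose by 0.80 (SE 0.13, adjusted p = 0.0103), 0.68 (SE 0.13, adjusted p = 0.0112) and 0.71 (SE 0.13, adjusted p = 0.00882) for L-Myc, C-Myc and N-Myc cells. The L-Myc call was lost without L-Myc 2 and the N-Myc call without either N-Myc array. Brf1 stayed between 7.93 and 8.29 and Bdp1, the third subunit, between 10.03 and 10.40 on its brightest probe set, and neither passed. On its dimmer second probe set, Bdp1 was called in all 3 groups, at 0.90, 1.02 and 1.05 for L-Myc, C-Myc and N-Myc cells.

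TFIIIA, encoded by Gtf3a, binds the 5S gene, and TFIIIC binds the boxes inside transfer RNA genes. Gtf3a read 10.94, 10.86 and 10.98 in preSC, 11.00 and 11.57 in L-Myc, 11.73 and 11.36 with C-Myc, and 11.93 and 11.76 with N-Myc. Gtf3a rose by 0.92 (SE 0.20, adjusted p = 0.016) in N-Myc cells, where both arrays were above all others, and differed by 0.62 (SE 0.20, adjusted p = 0.0614) in C-Myc cells. Gtf3c3 read 7.33, 7.79 and 7.75 in preSC, 8.41 and 8.62 in L-Myc, 8.49 and 8.55 with C-Myc, and 8.26 and 8.55 with N-Myc. All transduced arrays were above preSC for this TFIIIC subunit. It rose by 0.89 (SE 0.18, adjusted p = 0.0219), 0.90 (SE 0.18, adjusted p = 0.0147) and 0.78 (SE 0.18, adjusted p = 0.0202) for L-Myc, C-Myc and N-Myc cells.

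Gtf3c2, the subunit known in human cells as TFIIIC110, read 9.24, 9.14 and 9.17 in preSC, 9.83 and 9.79 in L-Myc, 9.88 and 9.44 with C-Myc, and 9.73 and 9.76 with N-Myc. It rose by 0.63 (SE 0.15, adjusted p = 0.0375) in L-Myc and by 0.56 (SE 0.15, adjusted p = 0.032) in N-Myc cells, and differed by 0.48 (SE 0.15, adjusted p = 0.0596) in C-Myc cells. Groups did not overlap preSC in any of the 3 on this probe set. On its second probe set Gtf3c2 differed by 0.31 in L-Myc and 0.48 in N-Myc cells, and neither was called. On its dimmer probe sets below that, all transduced arrays were above all preSC arrays. Gtf3c6, the smallest TFIIIC subunit, read 8.37, 8.16 and 8.33 in preSC, 8.75 and 9.09 in L-Myc, 9.81 and 9.15 with C-Myc, and 9.52 and 9.69 with N-Myc. On this brightest probe set the order was preSC, L-Myc and then the other arrays, with no overlap between these 3 sets. On the dimmer Gtf3c6 probe set, C-Myc (6.33 and 6.06) and L-Myc (6.00 and 6.26) overlapped, at a difference of 0.07. Gtf3c6 rose by 1.19 (SE 0.22, adjusted p = 0.0104) in C-Myc and by 1.32 (SE 0.22, adjusted p = 0.00728) in N-Myc cells, and differed by 0.64 (SE 0.22, adjusted p = 0.0959) in L-Myc cells.

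The Gtf3c6 promoter is shown as that of the TFIIIC subunit with the largest rise, with CACGTG in capitals 56 bases before the start (RefSeq GRCm38.p6, chr10:40257663-40257962, minus strand).
Gtf3c6: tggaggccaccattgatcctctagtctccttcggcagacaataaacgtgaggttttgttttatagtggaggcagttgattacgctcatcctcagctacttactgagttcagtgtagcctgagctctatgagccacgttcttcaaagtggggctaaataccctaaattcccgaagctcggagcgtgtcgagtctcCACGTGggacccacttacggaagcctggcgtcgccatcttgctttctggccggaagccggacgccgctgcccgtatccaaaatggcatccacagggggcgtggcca
Gtf3c1, the large subunit that contacts box B, differed by -0.50, -0.41 and -0.07 (SE 0.24 each) for L-Myc, C-Myc and N-Myc cells and did not pass. Gtf3c4 (9.95 to 10.41) and Gtf3c5 (8.12 to 8.76) did not pass either. On brightest probe sets, Gtf3c2, Gtf3c3 and Gtf3c6 were thus called in at least 2 groups and Gtf3c1, Gtf3c4 and Gtf3c5 in none. On its dimmer second probe set, Gtf3c4 was called at 0.45 (limma adjusted p = 0.0312) in C-Myc and 0.56 (limma adjusted p = 0.0118) in N-Myc cells.

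SNAPc, the complex that binds small nuclear RNA promoters of polymerases II and III, showed no rise on brightest probe sets. Snapc2 read 10.52, 10.45 and 10.48 in preSC, 10.07 and 10.04 in L-Myc, 10.11 and 9.99 with C-Myc, and 10.51 and 10.26 with N-Myc. It fell by 0.43 (SE 0.13, adjusted p = 0.0458) in C-Myc cells, and differed by -0.43 (SE 0.13, adjusted p = 0.064) in L-Myc cells. Leaving out any 1 of the 9 arrays ended the C-Myc call, and its second-brightest probe set differed by 0.59 in C-Myc cells. Snapc1 (8.38 to 9.40), Snapc3 (8.38 to 9.04) and Snapc4 (7.68 to 8.58) did not pass. On second-brightest probe sets, Snapc3 was called in all 3 groups, at differences of 0.67, 0.83 and 1.03 for L-Myc, C-Myc and N-Myc cells. Snapc2 was called there at 0.59 for C-Myc and 0.79 for N-Myc cells, opposite in sign to its brightest probe set. Maf1, which represses polymerase III and is held inactive in growing cells by mTORC1, stayed between 9.99 and 10.31 on its brightest probe set. On its second, of nearly the same brightness, all transduced arrays were above preSC, with differences of 0.25, 0.38 and 0.54, and the last, in N-Myc cells, passed (limma adjusted p = 0.0169).

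Polymerase I and III genes were compared as classes on each array, through the median over a class of each gene's value minus its preSC mean. For the 13 polymerase I subunits and factors this shift was -0.01 and 0.15 in the L-Myc arrays, 0.76 and 0.22 in C-Myc and 0.68 on both N-Myc arrays. For the 19 polymerase III subunits and factors it was 0.19 and 0.47 in L-Myc, 0.60 and 0.41 with C-Myc, and 0.54 and 0.48 with N-Myc. On brightest probe sets, polymerase III genes stood above polymerase I genes on both L-Myc arrays and polymerase I genes above polymerase III genes on both N-Myc arrays, while the C-Myc arrays split. For preSC, the polymerase I minus polymerase III difference was 0.02 ± 0.02 (SD, n = 3). It was -0.26 ± 0.09 (SD, n = 2) with L-Myc, -0.01 ± 0.24 (SD, n = 2) with C-Myc, and 0.17 ± 0.05 (SD, n = 2) with N-Myc. The SD pooled over groups was 0.118, and most of it came from the C-Myc arrays. It includes the close pairs of preSC and N-Myc arrays, and the gaps between groups were not tested. These directions hold for brightest probe sets and depend on that choice. The polymerase I minus polymerase III median change from preSC in L-Myc cells was -0.16 on brightest probe sets, -0.014 with the mean of probe sets and 0.46 on second-brightest probe sets. Between N-Myc and L-Myc cells it was 0.21 on the brightest and -0.12 on the second-brightest.

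**Figure D4:**
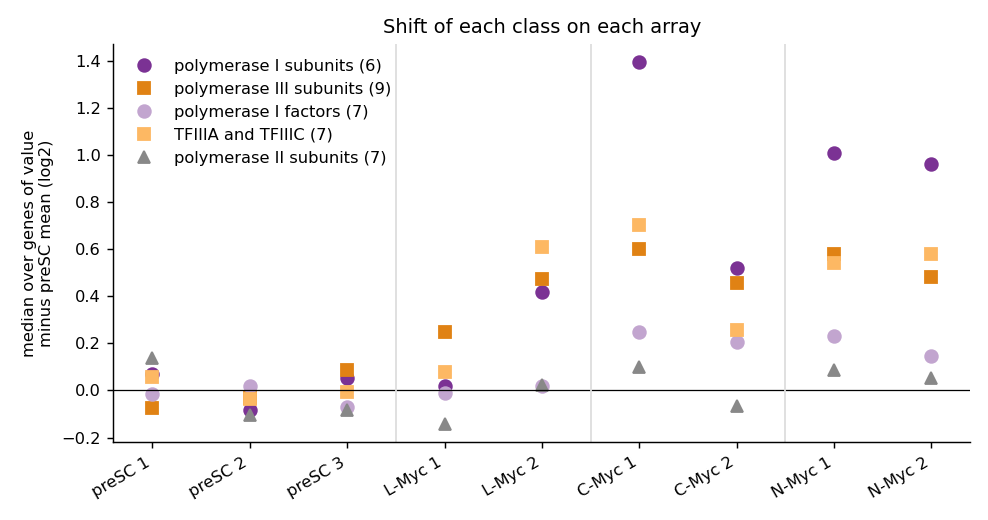
Median over the genes of a class of the value minus the preSC mean, on the log2 scale, for each of the 9 arrays; circles are polymerase I subunits and factors, squares polymerase III subunits and TFIIIA with TFIIIC, and triangles polymerase II subunits. The polymerase I subunits reach 1.39 on C-Myc 1 and 0.96 to 1.01 on the N-Myc arrays, while the polymerase II subunits stay between -0.14 and 0.14.

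Taken over subunits alone, polymerase I minus polymerase III was -0.23 and -0.06 in L-Myc, 0.79 and 0.06 with C-Myc, and 0.43 and 0.48 with N-Myc, with a preSC range of -0.05 to 0.14. Of the polymerase I genes 2, 5 and 6 of 13 rose in the L-Myc, C-Myc and N-Myc groups, and of the polymerase III genes 3, 7 and 8 of 19. These are shares of 15.4%, 38.5% and 46.2% for polymerase I and of 15.8%, 36.8% and 42.1% for polymerase III, and the difference between the classes was not tested. The 7 subunits of polymerase II alone had median changes of -0.10, 0.02 and 0.07, with no rise, and Polr2g fell by 0.77 (SE 0.23, adjusted p = 0.0438) in N-Myc cells. The C-Myc cells held the widest spread within a group. C-Myc 1 was higher than C-Myc 2 in 32 of 40 members, where 48.2% of all genes tested were, by up to 1.42 for Polr1b, and 3 members differed over 2-fold.

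Direct comparisons among the transduced groups called no member. Limma called 0 of 12976 genes (0%) in C-Myc against L-Myc, N-Myc against L-Myc and N-Myc against C-Myc. At an unadjusted p under 0.05 there were 8, 11 and 2 of 39 members and 602, 2432 and 541 of all genes, in this order. Polr3g was 1.48 (SE 0.41, adjusted p = 0.83) higher in C-Myc and 1.40 (SE 0.41, adjusted p = 0.176) higher in N-Myc than in L-Myc cells, and Polr1a 0.96 (SE 0.30, adjusted p = 0.183) higher in N-Myc than in L-Myc cells. The lowest adjusted p of any member was 0.165, for Taf1c in N-Myc against L-Myc, at 0.75 (SE 0.19). Without either C-Myc array, limma called 7 members in N-Myc against L-Myc: Polr1a, Polr1b, Cd3eap, Taf1c, Polr3e and Polr3g higher and Polr3gl lower, with 1131 genes called in all. The 2 C-Myc arrays lay apart for Polr1b, at 8.62 and 7.20, and for Polr3g, at 7.80 and 6.50. The L-Myc arrays read 7.15 and 7.20 for Polr1b and 5.33 and 6.01 for Polr3g. The step from L-Myc to the other MYC groups is therefore a set of values here and not a call, and the labelled RNA type cannot be told apart from it.

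Probe sets of the same gene did not always move alike. Besides the brightest, 43 probe sets of 22 members were above the filter, and on 25 of them (58.1%) all transduced arrays were above all preSC arrays. Over all genes this held for 27.8% of probe sets below the brightest and 15% of brightest probe sets, and among members for 13 of the 40 brightest. By at least 1 on the log2 scale it held for 9 member probe sets below the brightest (11.9% of such probe sets over all genes) and for 3 of the brightest (3.11%). The median difference between transduced and preSC arrays was 0.51 on the 43 and 0.35 on the brightest of the same genes. The second Ubtf probe set read 7.27, 6.83 and 6.66 in preSC and 9.26 to 9.57 in transduced arrays, where the brightest stayed between 10.22 and 10.52. The second Polr3c probe set read 5.89, 5.69 and 5.81 in preSC and 8.04 to 8.33 in transduced arrays. Where these probe sets lie along the transcripts was not analysed here, so such genes have no single value.

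**Figure D5:**
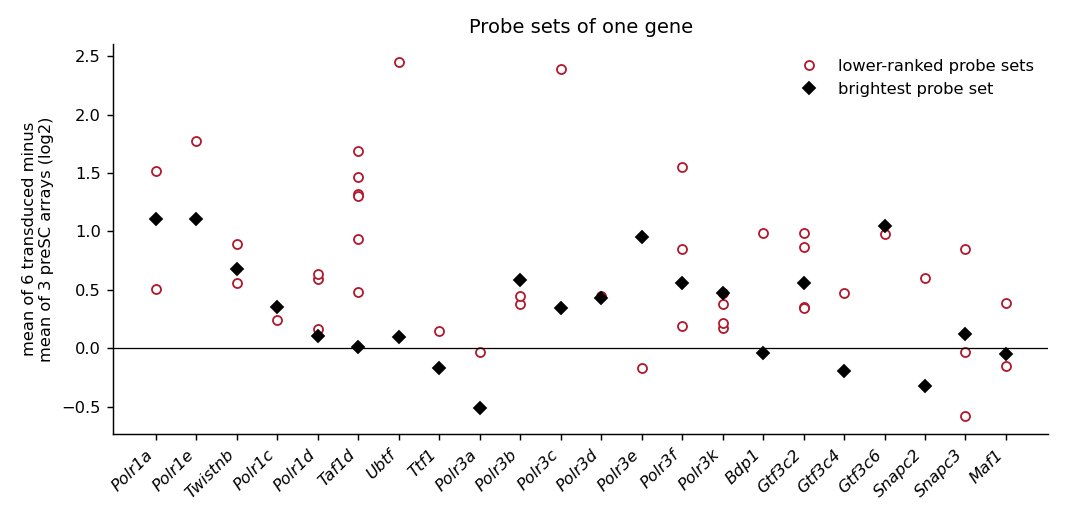
Mean of the 6 transduced arrays minus mean of the 3 preSC arrays, on the log2 scale, for each probe set above the filter of the 22 members with more than 1; diamonds are the brightest probe set and open circles the others. Ubtf and Polr3c are at 0.09 and 0.34 on the brightest and at 2.45 and 2.39 on the second.

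For Polr1a and Polr1e, the C-Myc and N-Myc group means were above the L-Myc mean on the other probe sets above the filter too. The 3 Polr1a probe sets above the filter were 0.78, 0.70 and 0.62 higher in C-Myc and 0.96, 0.68 and 0.78 higher in N-Myc than in L-Myc cells. Both Polr1e probe sets were also higher, by 1.37 and 1.03 in C-Myc and by 1.03 and 0.89 in N-Myc cells. These differences do not involve the preSC arrays. On the second Polr1e probe set C-Myc and L-Myc overlapped, at 9.12 and 7.89 with C-Myc and 6.97 and 7.98 in L-Myc. The second Polr1a probe set read 8.62 and 7.54 with C-Myc and 7.27 and 7.49 in L-Myc. On second probe sets of Gtf3c6, Polr3e and Twistnb, the difference from L-Myc cells was smaller than on the brightest. In C-Myc and N-Myc cells it was 0.07 and 0.23 for Gtf3c6, 0.09 and 0.07 for Polr3e, and 0.46 and 0.04 for Twistnb. For Polr3b it was larger on the second probe set, at 0.30 and 0.38.

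Genes that work with the machinery moved in part. Of 5 measured partners, Polr2h, a subunit common to all 3 nuclear polymerases, rose by 1.06 (SE 0.24, adjusted p = 0.0303), 1.50 (SE 0.24, adjusted p = 0.00737) and 1.38 (SE 0.24, adjusted p = 0.00863) for L-Myc, C-Myc and N-Myc cells. Among the other common subunits, Polr2e rose by 0.57 (SE 0.17, adjusted p = 0.0463) and Polr2f by 0.71 (SE 0.20, adjusted p = 0.0381) in N-Myc cells. Tbp, the TATA-binding protein shared by SL1, TFIIIB and SNAPc, rose by 0.72 (SE 0.16, adjusted p = 0.0188) in C-Myc cells. Of 8 regulators of polymerase I, 1, 3 and 3 rose and 1 fell in each group. The nucleolar helicase gene Ddx21 rose by 1.72 and 1.74 in C-Myc and N-Myc cells, the nucleolar phosphoprotein gene Nolc1 by 0.93, 0.98 and 0.82 in the 3 groups, and the silencing factor gene Baz2a fell by 0.87 in L-Myc and 0.71 in C-Myc cells. Ssb, which encodes La, the protein that binds the ends of new polymerase III transcripts, rose by 0.72, 0.89 and 0.85 for L-Myc, C-Myc and N-Myc cells, as 1 of 3 polymerase III regulators measured.

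The transcripts themselves were covered by control probe sets alone. None of the 13 listed products, such as the 7SK and RMRP RNAs, had a named probe set. The B1 repeat, which derives from a polymerase III transcript, read 12.33 to 12.73 in preSC and 12.43 to 13.11 in transduced arrays. The B2 repeat read 14.57 to 14.77 and 14.57 to 14.75 on its brighter probe set. Both ranges overlapped, and repeats are also transcribed within other genes. The 18S signal given above was lower in every transduced array, and its relation to the members that rose was not tested.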

How the data were processed

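RNA of 9 cell samples was measured on Affymetrix mouse arrays with 45101 probe sets. The authors deposited log2 values, 1 per probe set and array, made with RMA in the affy package under R 3.0.1, per the submitters' processing notes. The version of affy and the genome build are not given in the sources used here. RMA equalises the distributions of the arrays, so it would hide a shift shared by most transcripts. Array medians were 6.02 to 6.07, and no further scaling was done. All value columns of the table belong to the 9 samples. The number of arrays limits the precision.

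Probe sets were named through the platform annotation: 34958 had 1 gene symbol, 932 several and 9211 were not listed there, with 64 control probe sets given no gene. Of the 34945 used, 34741 matched RefSeq (GRCm38.p6) by identifier and 0 symbols changed. Each gene was given by its brightest probe set over 9 arrays, as the choice of members prescribes. A gene was tested if it exceeded the 40th percentile (5.28 to 5.34) of an array on at least 2 arrays.

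Groups came from the sample titles. Group means were fitted to all 9 arrays with limma 3.58.1 (R 4.3.3), with 5 residual degrees of freedom, two-sided tests and Benjamini-Hochberg adjustment over the 12976 genes tested at a threshold of 0.05. The procedure was tested on simulated data. Every member found by symbol is named, with values on every array where it passed in any comparison and otherwise by its range. Any other gene named comes from lists of partners, regulators and markers. The members and lists were chosen with earlier results of these data known. The submitters call the replicates biological, but no label names separate cultures, so p-values measure the spread between these arrays. Alternatives were other probe sets, filters, scalings and spread models, 2 groups alone, a replicate block, each array left out and, added after seeing the data, close replicates averaged.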

Additional observations from a re-analysis of the deposited data

Results flagged for a closer look

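On 9 probe sets that the comparisons did not use, because another probe set of the gene was brighter, all 6 transduced arrays were above all 3 preSC arrays by at least 1 on the log2 scale. The mean difference was 2.45 for the second Ubtf probe set and 2.39 for the second Polr3c probe set. It was 1.77 for the second Polr1e probe set, 1.55 for a Polr3f probe set and 1.52 for a Polr1a probe set. On 4 Taf1d probe sets below the brightest it was 1.32, 1.30, 1.68 and 1.46. Over all genes 11.9% of probe sets below the brightest met the same rule.

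Taf1c and Polr3gl were on opposite sides of preSC in L-Myc and N-Myc arrays. Taf1c was below all preSC arrays in L-Myc and above them in N-Myc arrays, and the groups differed by 0.75. Polr3gl was above in L-Myc and below in N-Myc arrays, a difference of -0.67. Limma gave these differences adjusted p-values of 0.165 and 0.176, so neither passed.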

How the results depend on the processing

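Under the alternative filters, quantile normalization, centring on the genes tested and a trended robust spread, the member counts stayed within 1.5 times the main counts and no call turned its sign. With 1 array left out in turn, counts of members called ranged from 1 to 8 in L-Myc, 6 to 18 in C-Myc and 1 to 18 in N-Myc against preSC, and from 0 to 2, 0 to 7 and 0 to 1 in C-Myc against L-Myc, N-Myc against L-Myc and N-Myc against C-Myc. Where this left 1 array in a group, it was assumed to vary like the other groups. The polymerase I minus polymerase III median change was -0.16, -0.13 and 0.15 for L-Myc, C-Myc and N-Myc cells and ranged from -0.32 to -0.14, -0.19 to 0.16 and 0.11 to 0.27. Between transduced groups it was 0.25, 0.21 and -0.16, in the order above, and ranged from 0.12 to 0.37, 0.090 to 0.36 and -0.16 to -0.08. With close replicates averaged, 0 members were called in each comparison with preSC. Replicate numbers are shared between groups, and same-numbered arrays of the transduced groups deviated together, with correlations of 0.14 to 0.44, as did preSC 1 with the arrays numbered 1 (0.13 to 0.65). Those of preSC 2 were -0.68, -0.37 and -0.014, so not every pair exceeded 0.1 and the arrays are taken to share only a number. With a replicate block the counts were 3, 7 and 8, and fitting the 2 groups alone gave 8 in C-Myc cells. The choice of probe set also moved values. Second-brightest probe sets both lost and gained calls. Of the main calls with such a probe set, the only L-Myc one, Gtf3c2, was lost, while 7 other members were called. With C-Myc 4 of 8 stayed called, Snapc2 with opposite sign, Polr1a, Polr3b, Polr3e and Polr3k were lost, and 9 were new. With N-Myc 2 of 6 stayed called, Polr1a, Twistnb, Polr3e and Gtf3c2 were lost, and 11 were new. With the mean of probe sets 9 members were called in L-Myc cells, and the class difference was -0.014 in L-Myc and 0.41 in C-Myc cells. On second-brightest probe sets it was 0.46 in L-Myc cells, 0.75 in C-Myc cells and, between N-Myc and L-Myc, -0.12, so its direction depends on the probe set. Single genes turned their sign with the mean of probe sets, at 1.20 for Ubtf in L-Myc, 0.077 for Snapc2 in C-Myc, and 0.51 for Bdp1 and 0.66 for Taf1d in N-Myc cells. On second-brightest probe sets they did so at 2.41 for Ubtf and 0.90 for Bdp1 in L-Myc cells. In C-Myc cells these were 0.59 for Snapc2, 0.45 for Gtf3c4 and -0.13 for Polr3e. In N-Myc cells they were 1.05 for Bdp1, 0.88 for Taf1d, 0.56 for Gtf3c4, -0.15 for Polr3e and 0.79 for Snapc2. The cause was not tested.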
